A study of Mus musculus with 2 samples.

Results

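The 9 miRNAs described here are known as markers of tissues other than the liver: miR-1a-3p, miR-133a-3p, miR-206-3p and miR-208a-3p of striated muscle, miR-124-3p, miR-9-5p and miR-137-3p of neural tissue, miR-205-5p of stratified epithelium and miR-375-3p of the pancreatic islet. They were picked by identity, as 9 mature-sequence accessions among the 610 features of a mouse miRNA array, to serve as tissue-foreign controls in liver RNA. The RNA came from liver-specific Hnf4a-null mice (Hnf4aΔH) and from floxed controls (Hnf4af/f), both 45-day-old males of mixed 129SV and C57BL/6 background. HNF4a is a nuclear receptor on which much of hepatocyte gene expression depends, and the study looked for miRNAs that change in liver when it is lost. Each genotype has 1 array with 1 dye channel, so every value below is a single measurement without replicate error and no test between the genotypes was possible. Neither the number of animals behind each array nor the Cre driver of the deletion is given in the sources used here.

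A miRNA is a short RNA that guides the silencing machinery to messenger RNAs, mainly by pairing through the seed, bases 2 to 8 from its 5′ end. Some miRNAs are made almost wholly in 1 cell lineage, because their genes lie in clusters or host genes that only that lineage transcribes. The muscle miRNAs act in myoblast differentiation and in the contractile programme of heart and skeletal muscle. miR-124 and miR-9 act in neurogenesis, and miR-375 restrains insulin secretion in islet beta cells. In bulk RNA of a tissue, fewer cells of a type and less RNA per cell cannot be told apart.

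Of the 9 names, 5 had a mature sequence in the RefSeq table used here (GRCm38.p6). These sequences are printed to show what each probe had to recognise and that these 5 are not 1 seed family. Capitals mark the seed.
miR-206-3p: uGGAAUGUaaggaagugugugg
miR-208a-3p: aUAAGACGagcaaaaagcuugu
miR-9-5p: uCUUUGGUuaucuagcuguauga
miR-137-3p: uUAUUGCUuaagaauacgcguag
miR-205-5p: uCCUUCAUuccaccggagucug

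The 5 sequences carried 5 distinct seeds, so no pair among them shared one. In the RefSeq table, the miR-208a-3p seed recurred in 1 other mature miRNA, miR-208b-3p of the same cardiac family. The miR-206-3p seed is known to be shared with miR-1a-3p, another of the 9, whose sequence is not printed here. Among the other mature miRNAs of the table it recurred in miR-6349 and miR-6382, and the seeds of miR-9-5p, miR-137-3p and miR-205-5p in none (0).

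In the annotation, the hairpins of 4 of the 5 overlap the spans of other genes, miRNA genes left aside. miR-206-3p lies on the plus strand at chr1:20679055-20679076, and its hairpin overlaps the span of the long noncoding RNA Lincmd1, a muscle transcript. The Mir206 hairpin stands 3686 bases from that of Mir133b. miR-208a-3p lies on the minus strand at chr14:54949072-54949093, and its hairpin overlaps the span of Myh6, which encodes a cardiac myosin heavy chain. miR-205-5p lies on the minus strand at chr1:193507503-193507524, and its hairpin overlaps the span of the long noncoding RNA Mir205hg. miR-137-3p lies on the plus strand at chr3:118433901-118433923, and its hairpin overlaps no listed gene, miRNA genes left aside. miR-9-5p has 3 loci, all on the plus strand, with hairpins that overlap the spans of long noncoding RNAs. These loci are chr3:88215613-88215635 (Gm3764), chr7:79505279-79505301 (Mir9-3hg) and chr13:83738821-83738843 (C130071C03Rik). The table gives gene spans only, so exon or intron was not resolved. Partial overlap was enough to count, and the strand of the overlapping gene was not compared.

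The values are the authors' processed intensities in arbitrary linear units, and a feature without a value is marked as null in their table, for a reason that the labels do not give. The Hnf4aΔH array gave a value for 340 of 610 features, from 1.02 to 8046 with a median of 3.20. The Hnf4af/f array gave one for 299, from 1.45 to 7459 with a median of 4.33. Hepatocyte markers could not be looked up, because no table at hand pairs the other accessions with miRNA names. The array holds miRNA features, so the loss of Hnf4a itself was not checked.

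The foreign miRNAs were absent from the bright part of both arrays. A value was given for 4 of the 9 on the Hnf4aΔH array (55.7% of all features had one) and for 3 of the 9 on the Hnf4af/f array (49.0% of all features). All 7 of these values lay below the 25th percentile of their own array, which was 1.76 for Hnf4aΔH and 2.18 for Hnf4af/f. They ran from 1.03 to 1.74 on the Hnf4aΔH array and from 1.86 to 1.96 on the Hnf4af/f array. Their sum was 5.54, or 0.0196% of the total intensity, for Hnf4aΔH and 5.72, or 0.0198%, for Hnf4af/f. None of the 9 (0) reached 2 times the lowest value of its own array, which 37.5% of all features did on the Hnf4aΔH array and 31.0% on the Hnf4af/f array. Probes differ in brightness for the same amount of target, so these places describe signals and give no order of abundance.

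**Figure D1:**
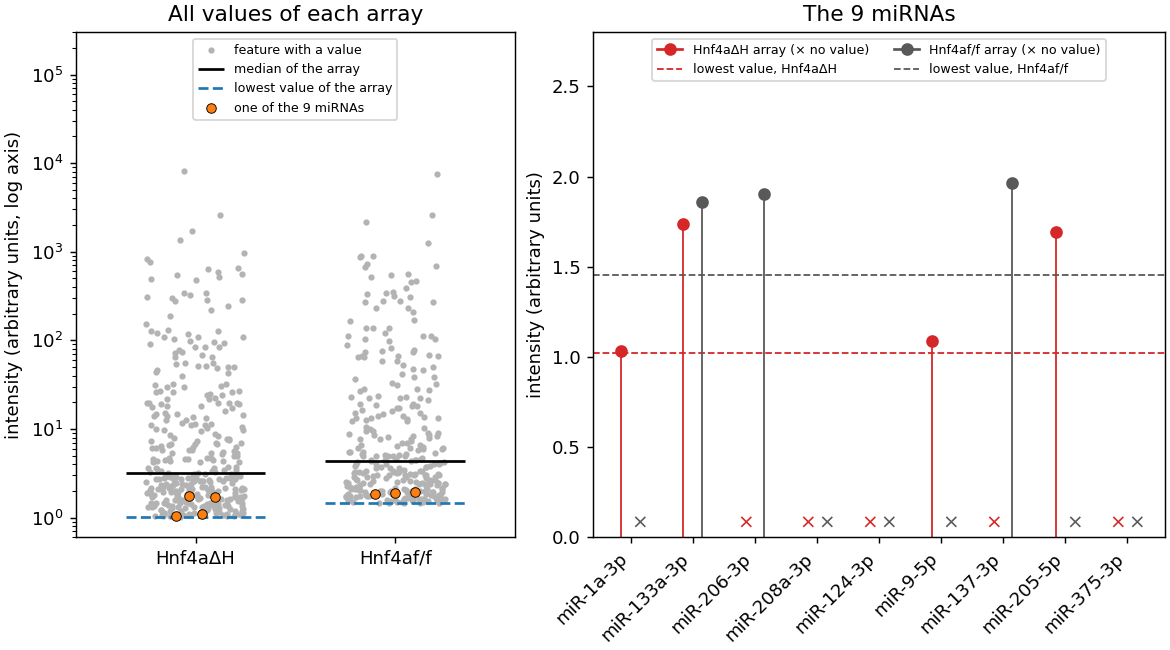
Left, the intensity of every feature with a value on the Hnf4aΔH and the Hnf4af/f array (log axis, arbitrary units), with the 9 miRNAs in orange, the array's median as a solid line and its lowest value as a dashed line. Right, the intensity of each of the 9 miRNAs (linear axis, arbitrary units) on the Hnf4aΔH (red) and Hnf4af/f (grey) array, where a cross at the bottom means that no value was given. The 4 Hnf4aΔH values run from 1.03 to 1.74 and the 3 Hnf4af/f values from 1.86 to 1.96, all below the array medians of 3.20 and 4.33.

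Among the 4 muscle miRNAs, 2 had a value in Hnf4aΔH liver and 2 in Hnf4af/f liver, but only miR-133a-3p had both. miR-133a-3p (MIMAT0000145), which is transcribed together with miR-1 and acts on muscle cell proliferation, had an intensity of 1.74 on the Hnf4aΔH array and 1.86 on the Hnf4af/f array. These are 1.70 times the lowest Hnf4aΔH value and 1.28 times the lowest Hnf4af/f value. The Hnf4aΔH array's median was 1.84 times its value there, and the Hnf4af/f array's median 2.33 times its value there. On either array, then, the signal sat between the lowest value and the median, at a percentile of 24.4 among the values given for Hnf4aΔH and of 15.4 for Hnf4af/f. Ranked among the features with both values only, these percentiles were 12.8 for Hnf4aΔH and 9.30 for Hnf4af/f.

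The other muscle miRNAs were given on 1 array at most. miR-1a-3p (MIMAT0000123), an abundant miRNA of heart and skeletal muscle, had an intensity of 1.03 on the Hnf4aΔH array and no value on the Hnf4af/f array. This was the lowest Hnf4aΔH value but 1, at 1.01 times the lowest, and it lay below every value of the Hnf4af/f array. miR-206-3p (MIMAT0000239), the form restricted to skeletal muscle, had no value on the Hnf4aΔH array and 1.90 on the Hnf4af/f array. That value was 1.31 times the lowest of its own array, at a percentile of 16.4 (10.5 among features with both values), and 98 features of the Hnf4aΔH array were given at lower values than 1.90. miR-208a-3p (MIMAT0000520), made in heart muscle from within Myh6, had no value on either array.

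Among the 3 neural miRNAs, each array gave a value for 1, and not for the same one. miR-9-5p (MIMAT0000142), which is expressed in neural progenitors, had an intensity of 1.09 on the Hnf4aΔH array and no value on the Hnf4af/f array. It stood at 1.06 times the lowest Hnf4aΔH value, with 14 features below it, and it too lay under the lowest Hnf4af/f value of 1.45. miR-137-3p (MIMAT0000149), a regulator of neuronal maturation, had no value on the Hnf4aΔH array and 1.96 on the Hnf4af/f array. This was 1.35 times the lowest of its array, at a percentile of 18.4 (12.0 among features with both values), and 103 features of the Hnf4aΔH array were given at lower values. miR-124-3p (MIMAT0000134), an abundant miRNA of neurons, had no value on either array.

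Outside muscle and nerve, miR-205-5p had a value on the Hnf4aΔH array alone and miR-375-3p on neither. miR-205-5p (MIMAT0000238), a miRNA of skin and other stratified epithelia, had an intensity of 1.69 on the Hnf4aΔH array and no value on the Hnf4af/f array. This was 1.65 times the lowest Hnf4aΔH value, at a percentile of 23.2 (12.0 among features with both values). Unlike the values of miR-1a-3p and miR-9-5p, it lay above the lowest Hnf4af/f value, and 31 features of the Hnf4af/f array were given at lower values. miR-375-3p (MIMAT0000739), the islet miRNA, had no value on either array. It was the only pancreatic miRNA of the set.

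Most of the 9 miRNAs were not given on both arrays. A value on both arrays was given for 1 of the 9 (42.3% of all features). A value on the Hnf4aΔH array alone was given for 3 (13.4% of all features), and one on the Hnf4af/f array alone for 2 (6.72% of all features). Neither array gave a value for 3 (37.5% of all features). Of the 6 miRNAs with any value, 5 had it on 1 array alone, against 32.3% of the 381 features with any value. Features as dim as these were mostly given on 1 array too. Of the 101 features with no value above 1.96, the highest of the 9 miRNAs, 80.2% had a value on 1 array alone. This level was chosen after the values were seen, and 5 of 6 (83.3%) lies near that share. The 101 features include these 6 miRNAs. A feature given on both arrays needed both values at or below the level to be counted, which by itself favours features given on 1 array.

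**Figure D2:**
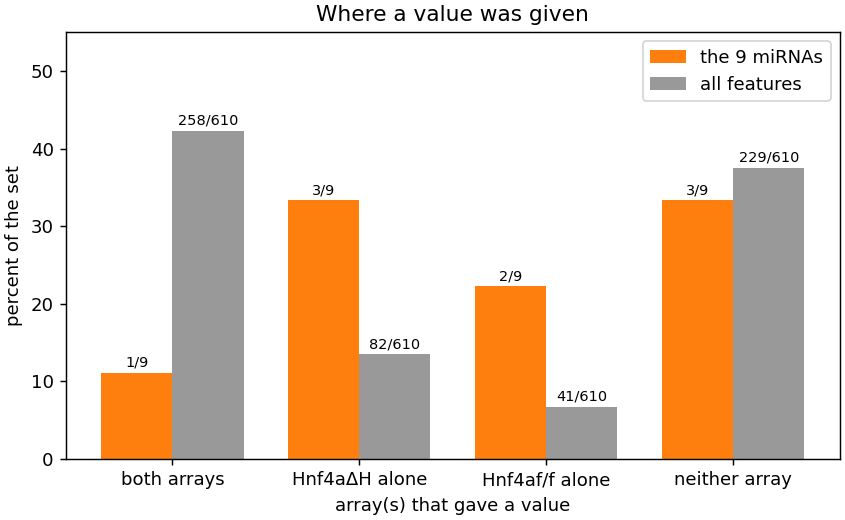
Percent of the 9 miRNAs (orange) and of all features (grey) with a value on both arrays, on the Hnf4aΔH array alone, on the Hnf4af/f array alone or on neither, with the counts above the bars. The 9 miRNAs are given on both arrays in 1 case, against 258 of 610 features, and on a single array in 5.

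The miRNAs given on 1 array alone were also set among the other features of that kind. On the Hnf4aΔH array there were 82 such features, with a median of 1.52. miR-1a-3p was the lowest of them, miR-9-5p had 9 of them below it and miR-205-5p 48. On the Hnf4af/f array there were 41, with a median of 1.76, and miR-206-3p had 22 and miR-137-3p 24 of them below. The 3 Hnf4aΔH signals were thus spread from the bottom to just past the middle of their kind, and both Hnf4af/f signals stood just above the middle. No fold change is given for these 5, because the level behind a null is unknown.

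A difference between the genotypes could be formed for miR-133a-3p alone, and it was small. Its log2(intensity + 1) was 1.45 in Hnf4aΔH liver and 1.52 in Hnf4af/f liver. The log2 difference, Hnf4aΔH minus Hnf4af/f, was -0.06, a ratio of intensities of 0.934. Because of the added 1, a fold change so computed is too small for dim features. The median difference over all 258 features with both values was also -0.06, with 25th and 75th percentiles of -0.33 and 0.36. Of these features 12.0% differed at least 2-fold, and miR-133a-3p was not among them. At its Hnf4af/f level it could not have been called 2-fold lower with the added 1. Even the lowest value of the Hnf4aΔH array, 1.02, would have fallen short of that. Its mean level had 24 of the 258 below it. In the dimmest quartile of shared features, where it belongs, the median difference was -0.23 and 2 of 65 features differed at least 2-fold, both lower in Hnf4aΔH. The sign of the miR-133a-3p difference turned with 2 other scalings, to 0.13 with quantile normalization and 0.16 with loess centring, so no direction is stated for it.

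**Figure D3:**
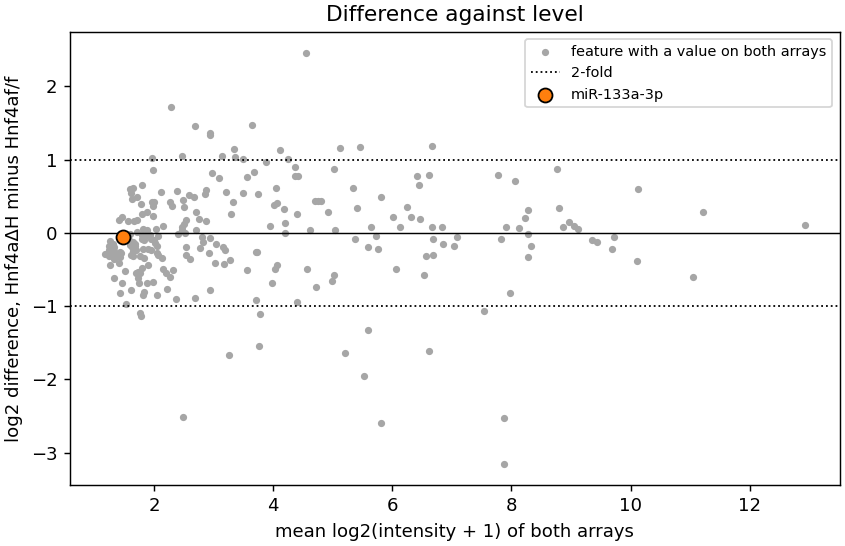
Log2 difference, Hnf4aΔH minus Hnf4af/f, against the mean log2(intensity + 1) of both arrays for the 258 features with both values (grey), with dotted lines at 2-fold. miR-133a-3p (orange) sits near the dim end at a difference of -0.06, within the 2-fold lines.

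The shared features nearest to miR-133a-3p in log2 level on both arrays are given as a description. Their differences lie near its own by the way they were picked. The nearest had an intensity of 1.73 on the Hnf4aΔH array and 1.82 on the Hnf4af/f array, a log2 difference of -0.05. The next had 1.76 on the Hnf4aΔH array and 1.90 on the Hnf4af/f array, a difference of -0.07. Likeness over 2 arrays is likeness of level only, and neither of these features could be named.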

How the data were processed

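Liver total RNA of 45-day-old male mice was labelled with the red dye Hy5 and hybridised to miRNA arrays, 1 array per genotype, per the labels' protocols. The authors deposited processed intensity values on a linear scale. How they were scanned, corrected for background, filtered and normalized, and what a null means, are unstated in the labels; nulls were not replaced. The 9 miRNAs and the lists were chosen with earlier results of these data known, and all 9 are reported whatever their values. The names of the 9 accessions came with the list of members. The reference tables named 0 of the 620 accessions, so the 11 lists of marker and related miRNAs could not be matched and are not reported. Each value was set against its array's lowest value and median and given a percentile, the share of the array's values below it. Intensities were converted to log2(intensity + 1), and a difference was Hnf4aΔH minus Hnf4af/f, with 2-fold as threshold. With 1 array per group no test, p-value or interval was made, and the number of arrays limits the precision. Alternatives were other rules for what counts as a value, centring on the median or 75th percentile, quantile and loess (span 0.4) scaling, no pseudocount or one of 16, leaving out dim features, and 1.5-fold and 4-fold as thresholds. The steps were tested on simulated features brighter than the 9 miRNAs, with missing values placed at random. That test did not cover dim features. The tools were Python 3.11.15 with numpy 2.4.6 and pandas 2.3.3, statsmodels 0.14.6 for loess, and matplotlib 3.10.9 for the figures.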

Additional observations from a re-analysis of the deposited data

How the results depend on the processing

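No paired analysis was possible because there is only 1 array of either genotype, so that none could be left out. The number of the 9 miRNAs with a value depended on what counts as one. With 1.45 as a common lowest value it was 2 on the Hnf4aΔH array (45.7% of all features) and 3 on the Hnf4af/f array (49.0%), since miR-1a-3p and miR-9-5p lay below it. Counting only values of at least 2 times the array's lowest, it was 0 on either array, against 37.5% of all features for Hnf4aΔH and 31.0% for Hnf4af/f. Counting only values at or above the array's median, it was again 0, against 27.9% for Hnf4aΔH and 24.6% for Hnf4af/f. The miR-133a-3p difference of -0.06 stayed within 1.5-fold under every scaling and pseudocount tried, from -0.22 with median centring to 0.16 with loess centring, and was 0.13 with quantile normalization. Without scaling, a pseudocount of 1 or 16 could not have given a 1.5-fold decrease at this level. Even the lowest Hnf4aΔH value, 1.02, would have stayed within it. The difference stayed negative with centring on the 75th percentile. With no pseudocount or one of 16 its sign could not turn, because adding the same number to both intensities keeps their order. With the filter on dim features miR-133a-3p was left out and has no value. Ranked among the shared features only, the highest percentile of the 9 was 12.8 for Hnf4aΔH, against 24.4 among all its values, and 12.0 for Hnf4af/f, against 18.4. The settings for marker and related lists were not run, because the accessions could not be named.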
